A study of Rattus norvegicus with 287 samples.

Results

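The organic ion and drug transporters described here are the 43 genes of 32623 in the rat gene table whose symbols begin with Slc22a, Slc47a, Slco or Abcc followed by a number. They comprise 16 Slc22a, 2 Slc47a, 15 Slco and 10 Abcc genes, and all 43 were taken by symbol alone. No measured value entered that rule, but it was chosen with earlier results of these data known. They are called members below. Expression was measured by RNA sequencing in liver, kidney, intestine and brain, the last described as hypothalamus in the design text, of rats. The treatment was peripheral focused ultrasound (pFUS) on the liver's gateway, the porta hepatis, and controls were handled alike under isoflurane without energy.

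These proteins move drugs, hormones and metabolites across the membranes of liver, kidney, gut and brain barrier cells. Slc22a proteins carry organic cations, organic anions, urate and carnitine, Slco proteins (the OATPs) take up bile acids, steroid conjugates, thyroid hormones and prostaglandins without using ATP directly, Slc47a proteins exchange cations for protons on the way out of the cell, and most Abcc proteins (the MRPs) pump conjugates out with ATP. Abcc8 and Abcc9 are exceptions: they encode the sulfonylurea receptors, regulatory subunits of ATP-sensitive potassium channels.

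The 7-week Obese ZDF rats (Zucker Diabetic Fatty, which lack a working leptin receptor) were males, with 5 controls and 5 pFUS rats in each of the 4 tissues. The 7-week Lean Zucker rats were males, with 5 controls and 5 pFUS rats in liver and brain, 5 and 3 in intestine, and no kidney library analysed here. DIO-stz rats at 7 weeks, from the DIO model of the design text, were 4 controls (2 females, 2 males) and 5 pFUS rats (1 female, 4 males), and 2 females treated with pFUS were labelled DIO Diet Resistant. In the Obese ZDF males with 3 days of treatment, 4 livers each were control, pFUS AM only x1 and pFUS AM only x10, and at 4 weeks 4 livers each were AM & PM x1, AM & PM x10 and AM only x10, with no matched control group. The labels do not say what x1, x10, AM and PM stand for, nor the rats' ages. Each session lasted 3 minutes at 1.1 MHz, 200 mV per pulse, 150 burst cycles and a 500 µs burst period.

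Levels are CPM, each gene's count scaled to the library's total count. That total ranged from 6507872 to 43088790 counts over the 136 libraries of the 32 groups. The control livers of obese rats were deeper, at 21726174 to 43088790 counts, than those of lean rats, at 13752172 to 23512019. Each library is named by the number in its label. A few libraries stood apart from their groups: lean control liver 15, DIO-stz pFUS liver 7, obese control kidney 2, DIO-stz pFUS kidney 11, lean control brain 11 and lean pFUS brain 19. Of the 29 intestines, 6 had the ileal gene Fabp6 above 1000 CPM (obese control 1, lean controls 11 and 14, DIO-stz controls 3 and 4, DIO-stz pFUS 9), so that bowel segment differed between libraries. The labels number the libraries but do not say that each is a separate animal, so p-values measure the spread between these libraries. In whole tissue, fewer cells of a type and less RNA per cell cannot be told apart.

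Promoters of 4 genes with large differences between the sexes in kidney or liver are shown, so that genes that differ in opposite directions can be read side by side. RefSeq (GRCr8) gave promoters for 34 of the 43 genes, each with 250 bases before the start and 50 after, while the counts were made on Rnor_6.0. Capitals mark matches on either strand to AGAACA, the half-site of androgen and glucocorticoid receptors, or to GTTAAT, the half-site of HNF1, and the 2 motifs do not overlap each other in any of the 4. Slco1a1 (chr4:176681943-176682242, minus strand) and Slc22a22 (chr7:90639646-90639945, minus strand) had no count in 3 female kidneys, Slc22a7 (chr9:22045248-22045547, plus strand) was higher in them, and Slc22a8 (chr1:214927034-214927333, plus strand) was lower in female livers.
Slco1a1: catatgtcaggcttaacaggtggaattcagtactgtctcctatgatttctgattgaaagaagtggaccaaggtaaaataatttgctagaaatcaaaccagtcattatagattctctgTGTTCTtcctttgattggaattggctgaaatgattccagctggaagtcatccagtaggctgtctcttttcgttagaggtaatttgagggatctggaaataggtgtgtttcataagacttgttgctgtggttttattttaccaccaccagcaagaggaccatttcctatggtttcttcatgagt
Slc22a22: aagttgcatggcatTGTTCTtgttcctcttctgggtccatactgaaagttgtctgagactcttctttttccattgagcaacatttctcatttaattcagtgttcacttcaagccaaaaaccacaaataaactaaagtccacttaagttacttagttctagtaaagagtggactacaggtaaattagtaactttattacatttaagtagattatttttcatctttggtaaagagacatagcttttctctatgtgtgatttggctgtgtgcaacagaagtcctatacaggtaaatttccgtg
Slc22a7: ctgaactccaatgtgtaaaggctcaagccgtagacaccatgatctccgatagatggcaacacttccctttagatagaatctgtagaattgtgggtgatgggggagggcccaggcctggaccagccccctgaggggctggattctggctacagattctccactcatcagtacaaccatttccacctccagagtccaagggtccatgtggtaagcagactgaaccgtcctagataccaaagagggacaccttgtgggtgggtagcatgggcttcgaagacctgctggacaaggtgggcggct
Slc22a8: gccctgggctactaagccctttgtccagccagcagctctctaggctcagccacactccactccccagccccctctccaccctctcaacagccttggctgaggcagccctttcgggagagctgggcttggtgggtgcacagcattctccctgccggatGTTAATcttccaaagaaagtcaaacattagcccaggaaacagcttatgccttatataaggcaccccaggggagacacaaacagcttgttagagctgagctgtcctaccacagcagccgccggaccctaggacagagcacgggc
AGAACA was matched on the minus strand at -133 to -128 from the start of Slco1a1 and at -236 to -231 from that of Slc22a22, and GTTAAT on the plus strand at -93 to -88 of Slc22a8. Of all 33469 promoters of this length, 20.7% hold AGAACA and 7.45% hold GTTAAT, against 4 of 34 member promoters (11.8%) for each. A match is a run of letters, not a shown binding site. The other members with AGAACA were Slc22a23 and Slco1a6, and those with GTTAAT also included Abcc2, Slc22a25 and Slco1b2. The promoter of Slc22a13, also higher in female kidneys, held neither motif and is not printed.

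Levels of the transporters differed between the 4 tissues. In obese ZDF controls, 36 of the 43 reached a mean of 1 CPM in at least 1 of the 4 tissues. Kidney held the highest mean for 17 of these, liver for 8, brain for 8 and intestine for 3, and the 5 libraries of the highest tissue did not overlap those of the next for 11, 7, 6 and 2 of them. The share of all genes that separate in this way was not counted, so these counts do not set the transporters apart from other genes. The remaining 7 stayed below 1 CPM, and Slco6b1, Slco6c1 and Slco6d1 had no count in any of the 20 libraries. The heat map of mean levels by tissue shows these blocks.

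**Figure D1:**
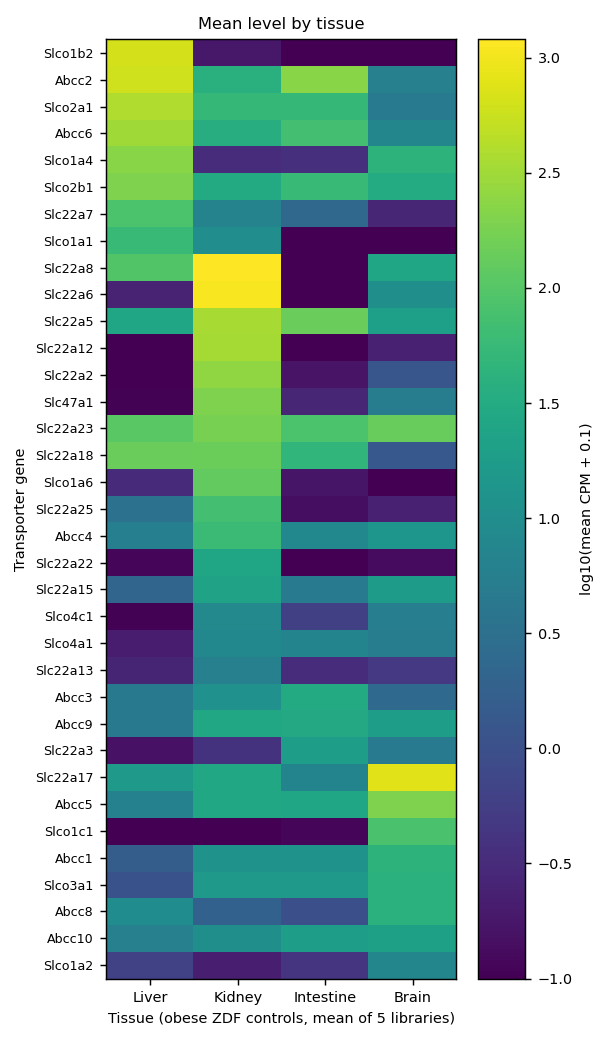
Mean level of 35 transporter genes (rows) in 4 tissues (columns) of obese ZDF controls, n = 5 libraries each, as log10(mean CPM + 0.1), ordered by the tissue with the highest mean. Slco1b2, at 648.9 CPM in liver, and Slc22a6, at 1108 CPM in kidney, are each high in a single column.

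Kidney and liver differed in 29 of the 36 members tested in obese controls by edgeR's quasi-likelihood test with a Benjamini-Hochberg adjusted p under 0.05. Over all genes 56.1% were called, 31.4% higher and 24.7% lower in kidney, while 18 members were higher and 11 lower. The median log2 fold change of kidney over liver was 1.03 over the members and 0.09 over all genes. Scaling by library totals in place of TMM moved the median of all genes by 1.12 on the log2 scale, called 24 members higher and 9 lower, and moved the share of called genes that were higher in kidney from 55.9% to 88.6%, so the fold changes below are relative to that shift.

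The organic anion carriers of the proximal tubule led in kidney. Slc22a6 (OAT1), which takes organic anions from blood into tubule cells, was at 1824, 339, 1413, 1080 and 883 CPM in obese control kidneys 1 to 5. It was 11.60 ± 0.88 (log2, SE) above liver (edgeR adjusted p = 5.27e-09). Slc22a8 (OAT3), with a similar role, had a mean of 1201 ± 635.7 CPM (SD, n = 5) in kidney and 95.2 ± 65.7 in liver, a log2 difference of 2.65 ± 0.54. Kidney 2 was the lowest of the 5 for both genes. Slc22a12 (URAT1), the urate carrier of the brush border, was at 343.2 ± 205.2 CPM (SD, n = 5) in kidney with no count in any liver. Scaled by library totals and not TMM, that mean was at least 2490-fold above a floor of 3 counts per liver library. The lowest kidney was at 119.9 CPM. Slc22a13, also a urate and nicotinate carrier, was low, at 0.848 to 16.8 CPM in kidney, and still 4.23 ± 0.75 above liver. Slco1a6, a kidney OATP, was 8.22 ± 0.73 above liver, with the reservation that near-identical Slco1a genes can share reads.

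Most of the cation carriers tested were also higher in kidney. Slc22a2 (OCT2), the main basolateral cation carrier of the tubule, had 253.7 ± 175.2 CPM (SD, n = 5) in kidney and no count in liver. That mean was at least 1840-fold above the same floor, again by library totals, and the lowest kidney was at 73.15 CPM. Slc47a1 (MATE1), which passes cations into urine, had 198.0 ± 76.1 CPM (SD, n = 5) in kidney and 1 count in all 5 livers. The carnitine carrier Slc22a5 (OCTN2) was 2.75 ± 0.26 higher in kidney. Of the 6 cation carriers tested, 4 were higher in kidney, 0 lower and 2 not called. Of the 10 kidney anion and urate carriers, 7 were higher in kidney and 3 (Slc22a7, Slco1a1, Abcc2) lower. That list was drawn up for the kidney, with earlier results of these data known, so its count is not separate evidence.

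Sinusoidal uptake carriers led in liver. Slco1b2, which takes up bile acids, bilirubin and statins, was at 843, 447, 944, 586 and 425 CPM in obese control livers 1 to 5, and 13.79 ± 0.68 on the log2 scale above kidney, where its mean was below 1 CPM. All 5 livers were far above all 5 kidneys. Slco1a4, a carrier of bile acids and digoxin, fell by 11.11 ± 0.46 from liver to kidney, and Slc22a7 (OAT2), a carrier of small anions and nucleotides, fell by 4.71 ± 0.76. Among the 6 tested uptake carriers, 5 were lower in kidney and 1 was not called. That list was drawn up for the liver, with earlier results of these data known, so its count is not separate evidence. Of the 4 export pumps, Abcc2 (MRP2), which excretes conjugates into bile, fell by 5.08 ± 0.45 and Abcc6 by 4.24 ± 0.31, Abcc4 (MRP4) rose by 2.27 ± 0.22, and Abcc3 (MRP3) was not called. Slc22a18 was the single call that turned with the scaling: -1.02 with TMM against 0.04 with library totals (edgeR adjusted p = 0.88), and Slco1a2 was no longer called (-2.14, adjusted p = 0.0539).

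Other members were highest in brain or in intestine. Slc22a17, also known as a lipocalin receptor, was at 1071, 894, 645, 669 and 724 CPM in obese control brains. Abcc5 (MRP5), a cyclic nucleotide exporter, was at 195.5 ± 9.2 CPM, and Slco1c1, the thyroxine carrier of the blood-brain barrier, at 82.1 ± 7.22 (SD, n = 5). All 5 brains exceeded the other tissues' libraries for these 3. Slco1a2 varied between brains, at 4.96, 8.61, 15.2, 0 and 7.75 CPM, and the summed choroid plexus markers (5 of 5 found) were 2021, 1179, 2815, 7.36 and 1218 CPM in the same libraries. The brain without Slco1a2 was also the one with almost no choroid plexus signal, a link that was not tested. RefSeq gives the name Slco1a2 to no single rat gene, so that row's identity is uncertain. Abcc3 was at 29.5, 34.0, 39.6, 26.8 and 27.1 CPM in intestine, above all libraries of the other 3 tissues, as was the cation carrier Slc22a3 (OCT3), at 12.9 to 25.9. Abcc9 had a mean of 28.7 CPM in intestine and 28.1 in kidney, where its range of 10.4 to 46.4 overlapped. Abcc2, highest in liver, was at 79.3, 110, 253, 384 and 313 CPM in intestine, and the lowest value was in the ileal library.

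Obese livers differed from lean livers in 6 of the 26 members tested, 3 higher and 3 lower, against a background of 14.3% of all genes (8.14% higher, 6.15% lower). The calls were the carnitine carrier Slc22a5, the exporter Abcc5 and the channel subunit Abcc8 (higher in obese) and Slc22a8, Abcc9 and Slco5a1 (lower). None of the 6 uptake carriers and none of the 4 export pumps passed in either direction, and the median log2 fold change was -0.04 over the members and -0.04 over all genes. The plot of liver levels by library shows the 6 genes.

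Slc22a5 was at 35.7, 19.1, 21.1, 24.7 and 25.6 CPM in obese controls 1 to 5 and at 12.0, 18.5, 14.2, 15.3 and 12.1 in lean controls 11 to 15, a log2 difference of 0.81 ± 0.18 (edgeR adjusted p = 0.00375). Every obese liver was above every lean one. Abcc5 was at 7.00, 5.49, 7.41, 5.09 and 6.10 CPM in obese and 2.70, 3.53, 4.66, 5.02 and 1.02 in lean controls (0.90 ± 0.23, edgeR adjusted p = 0.0129). Its groups met without overlapping, obese liver 4 lying just above lean liver 14. Abcc8 was at 11.0, 5.02, 12.4, 10.4 and 9.28 CPM in obese and 2.58, 3.81, 2.77, 2.77 and 7.05 in lean controls (1.28 ± 0.30, edgeR adjusted p = 0.0067). Lean liver 15 alone reached the obese range.

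Slc22a8 was at 33.7, 17.8, 123, 134 and 167 CPM in obese and 278, 247, 235, 243 and 386 in lean controls, a log2 difference of -1.63 ± 0.42 (edgeR adjusted p = 0.0116). All obese livers were below all lean ones, with obese livers 1 and 2 lowest. Abcc9, the sulfonylurea receptor of smooth muscle and vessel-wall cells, was at 4.00, 3.33, 5.77, 3.49 and 5.15 CPM in obese and 9.37, 10.2, 11.9, 13.4 and 5.75 in lean controls (-1.19 ± 0.31, edgeR adjusted p = 0.0141). Slco5a1, an OATP whose cargo is little known, was near the limit of counting, at 0.644, 0.444, 0.154, 0.886 and 0.836 CPM in obese and 1.51, 1.51, 1.34, 1.45 and 0.727 in lean controls (-1.11 ± 0.33, edgeR adjusted p = 0.0273). For both genes lean liver 15 was again the only lean library inside the obese range. The Slco5a1 call was lost in 4 of the 10 fits that left out 1 library, with an adjusted p of up to 0.0574.

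**Figure D2:**
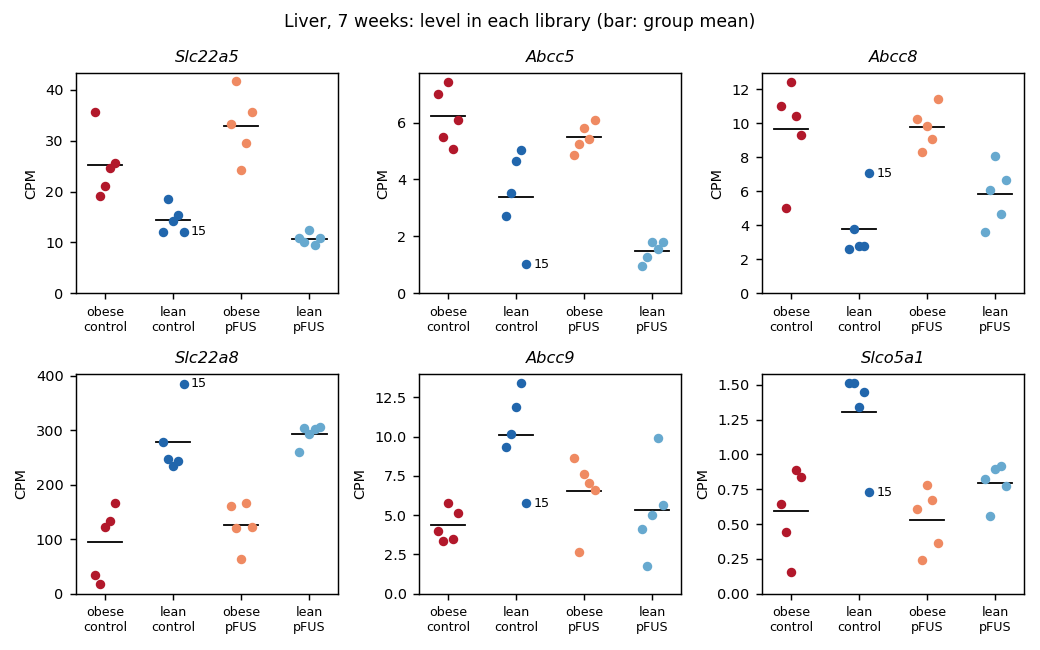
Level in CPM of 6 transporter genes in each 7-week liver library (points; bar, group mean) of obese and lean rats, control and pFUS, n = 5 each. Lean control 15 is marked: for Abcc8, at 7.05 CPM, it lies among the obese controls.

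The pFUS livers of the same cohorts give the obese and lean levels under treatment, so they do not repeat the control comparison. Slc22a5 was at 24.3 to 41.6 CPM in the 5 obese and 9.56 to 12.4 in the 5 lean pFUS livers, Abcc5 at 4.86 to 6.07 and 0.976 to 1.79, and Slc22a8 at 64.5 to 167 and 260 to 306. These 3 and Abcc8 (8.31 to 11.4 against 3.61 to 8.05 CPM) did not overlap, while Abcc9 and Slco5a1 did, and these differences were not tested. With the fit restricted to the 2 control groups only Abcc9 and Slc22a5 were called, and the others had edgeR adjusted p-values of 0.0578 (Abcc8), 0.0721 (Slc22a8), 0.0778 (Abcc5) and 0.0823 (Slco5a1). DESeq2 called 8, adding Abcc10 and Slc22a25. Without lean control 15 there were 7, 4 higher and 3 lower, at 17.3% of all genes.

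Summed cell markers of the same livers separated obese from lean controls for cholangiocytes only, and the ranges of the other sets overlapped. Summed Kupffer and macrophage markers (6 of 6 found) were 224.8 to 378.5 CPM in obese and 70.3 to 239.5 in lean controls, and cholangiocyte markers (5 of 5) 6.83 to 10.4 and 13.0 to 22.8. Liver endothelium markers (3 of 4) were 83.4 to 106.1 and 36.0 to 105.0 CPM. Hepatocyte markers (6 of 6) reached 121800 to 206800 and 124000 to 133300 CPM. No listed marker was at 0 throughout. Their part in the transporter differences was not tested.

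Other genes of drug handling were counted from lists, beside the 14.3% called over all genes. Of 12 other bile acid, drug and peptide transporters, 4 were higher in obese liver, 2 lower and 6 not called, the largest being Abcg8 (-4.20 ± 0.65) and Abcg5 (-2.72), the sterol exporters, and the nucleoside carrier Slc28a2 (2.35). Among 19 nuclear receptors and transcription factors, 2 were higher (Stat5b at 1.03 and the bile acid receptor Nr1h4 at 0.63) and 2 lower (Cebpa at -1.34 and Nr1i2, the PXR, at -0.83). Of 22 drug enzymes, 2 were higher and 3 lower, with Cyp2c7 at 2.47, Nqo1 at 1.93, the P450 reductase Por at -2.31 and Cyp3a18 at -1.86.

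No member was called between obese and lean intestine by edgeR (0 of 22 tested, 6 at an unadjusted p under 0.05, 0 by DESeq2), where 0.0136% of all genes were called. The prostaglandin carrier Slco2a1 was at 54.1, 40.1, 56.7, 66.9 and 39.9 CPM in obese and 20.5, 38.6, 23.3, 38.1 and 40.7 in lean controls, which overlapped at a single lean library. Slc22a3 (OCT3) was at 12.9 to 25.9 and 5.21 to 17.1 CPM. Without the 3 ileal libraries the count was again 0.

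In brain edgeR likewise called 0 of 27 (6 at an unadjusted p under 0.05, 2 by DESeq2: Abcc4 and Slco1c1) against 0.338% of all genes (0.142% higher, 0.196% lower). Slco1c1 was at 83.9, 71.4, 80.4, 91.4 and 83.5 CPM in obese and 85.5, 136, 107, 89.2 and 133 in lean controls (-0.59 ± 0.13, edgeR adjusted p = 0.0609). The lowest lean brains, 11 and 14, lay within the obese range. The pFUS brains held 73.6 to 92.3 CPM in obese and 111 to 138 in lean rats, without overlap. Abcc4 had a log2 difference of -0.63 ± 0.16 (edgeR adjusted p = 0.155) and Slco1a4, which lines the same vessels, of -1.02 ± 0.38 (0.581). Without lean control 11 and lean pFUS 19, Slco1c1 (-0.67 ± 0.12, edgeR adjusted p = 0.00832) and Abcc4 (-0.73 ± 0.14, 0.0163) were called, at 0.766% of all genes. Summed brain endothelium markers (4 of 4 found) were 237.1 to 352.9 CPM in obese and 361.2 to 556.5 in lean controls, without overlap. Their part in the Slco1c1 and Abcc4 values was not tested.

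Ultrasound for 7 weeks left no transporter past the threshold in obese ZDF rats. In liver edgeR called 0 of 26 (0 at an unadjusted p under 0.05, 0 by DESeq2), at 0.397% of all genes (0.0477% higher, 0.35% lower), and in brain 0 of 27 (2 and 0), at 0%. The median log2 fold change of the members was 0.11 in liver and -0.05 in brain.

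Kidney had 0 of 31 called (5 at an unadjusted p under 0.05, 0 by DESeq2) at 0.105% of all genes. The largest log2 fold changes were those of Slco1a1, Slco1a6 and Slc22a22. Slco1a1, an OATP of liver and tubule, was at 9.81, 3.67, 17.8, 10.3 and 8.49 CPM in controls 1 to 5 and at 64.6, 2.33, 19.7, 76.0 and 50.3 in pFUS kidneys 6 to 10 (2.12 ± 0.70, edgeR adjusted p = 0.601). Slc22a22, a prostaglandin carrier, was at 13.2, 20.7, 41.4, 28.9 and 18.1 in controls and 96.1, 14.6, 48.4, 97.8 and 68.7 in pFUS kidneys (1.47 ± 0.46, edgeR adjusted p = 0.567). Kidneys 6, 9 and 10 were high for both and kidney 7 was below every control for Slco1a1.

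Slco1a6 followed the same libraries, at 190.7, 25.9, 210.4, 84.0 and 110.5 CPM in controls and 523.6, 31.3, 259.5, 669.2 and 500.0 in pFUS kidneys. Summed markers of the S3 segment (3 of 3 found: Slc7a13, Slc5a1, Agt) were 599.3, 106.9, 567.7, 165.8 and 240.5 CPM in controls 1 to 5 and 1143, 44.9, 640.9, 1274 and 874.0 in pFUS kidneys 6 to 10. The 3 libraries high for the carriers were also highest for the markers, and library 7 was lowest, as the plot of kidney carriers beside the S3 marker sum shows. The part of tissue composition was not tested.

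**Figure D3:**
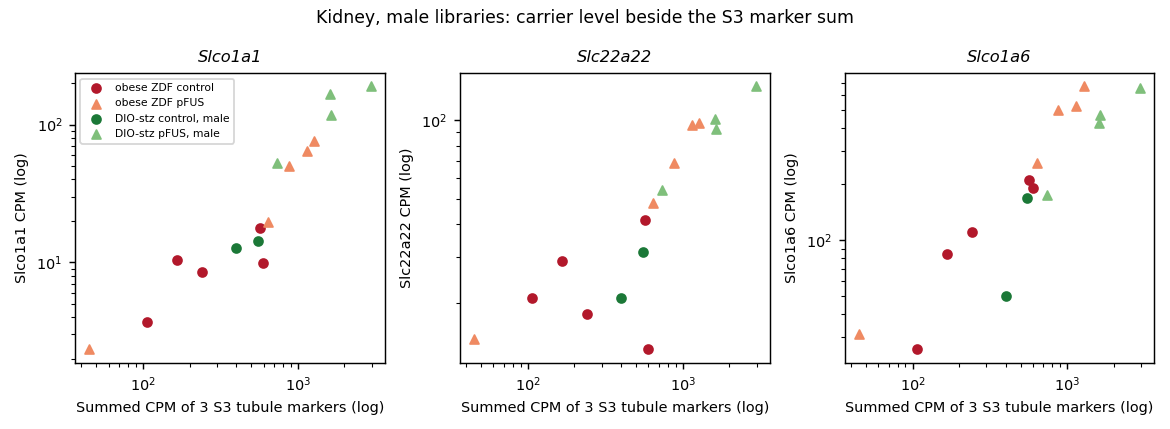
Level of 3 transporter genes (y axis, CPM, log scale) beside the summed level of 3 S3 tubule markers (x axis, CPM, log scale) in male kidney libraries: 5 obese ZDF controls, 5 obese ZDF pFUS, 2 DIO-stz controls and 4 DIO-stz pFUS. Slco1a1 was lowest, at 2.33 CPM, in the kidney with the lowest marker sum, 44.9 CPM.

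In obese intestine edgeR called 0 of 22 (3 at an unadjusted p under 0.05) at 0.0612% of all genes (0.0408% higher, 0.0204% lower), and DESeq2 called 1. Without ileal libraries (here obese control 1 and, in the shared fit, lean controls 11 and 14) edgeR also called 1, at 2.59% of all genes. Scaling by library totals moved the median of all genes by -0.26 and then called 4 members lower, Abcc4, Abcc10, Slc22a15 and Slc22a17, among 1694 genes, of which 2.66% were higher against 66.7% with TMM.

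Lean livers treated for 7 weeks also had 0 of 26 members called by edgeR (8 at an unadjusted p under 0.05, 3 by DESeq2: Abcc2, Abcc4 and Abcc5), at 0.389% of all genes (0.103% higher, 0.286% lower). The counts depended on single libraries. Without lean pFUS 20, 3 members (Abcc2, Abcc4 and Abcc5) and 736 genes were called, without lean pFUS 19 no member and 295 genes, and without any 1 of libraries 11 to 14 or 16 to 18 no member and 0 to 5 genes. Without lean control 15, 4921 of 12724 genes (38.7%) were called, and 11 of 26 members with them, 5 higher and 6 lower.

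The 6 that fell without library 15 were Abcc4 (-1.29 ± 0.36), Abcc5 (-1.16 ± 0.21), Slco1b2 (-1.13 ± 0.32), Slco1a1 (-1.08 ± 0.33), Abcc2 (-0.79) and Slc22a23 (-0.48). Slco1b2 was at 612, 724, 822, 834 and 84.2 CPM in lean controls 11 to 15 and at 366, 103, 385, 374 and 178 in pFUS livers 16 to 20. All pFUS livers were below controls 11 to 14 and above control 15. Abcc5 was at 0.976, 1.28, 1.79, 1.57 and 1.79 with pFUS, below controls 11 to 14. Among the 5 that rose were Abcc8 (1.24 ± 0.22), Slc22a7 (1.02 ± 0.16), Slc22a18 (0.76) and Slc22a17 (0.61). Slc22a7 was at 91.8, 83.8, 76.1, 71.0 and 185.9 CPM in controls and 108, 166, 142, 110 and 134 with pFUS, again with control 15 on the far side of the treated livers. Summed markers in lean control 15 were 89.7 CPM for Kupffer cells, 36.0 for endothelium and 22.8 for cholangiocytes, against 41.2 to 220.1, 19.1 to 67.9 and 9.02 to 17.5 in the lean pFUS livers, and their part was not tested. The plot of lean liver fold changes sets both fits side by side.

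**Figure D4:**
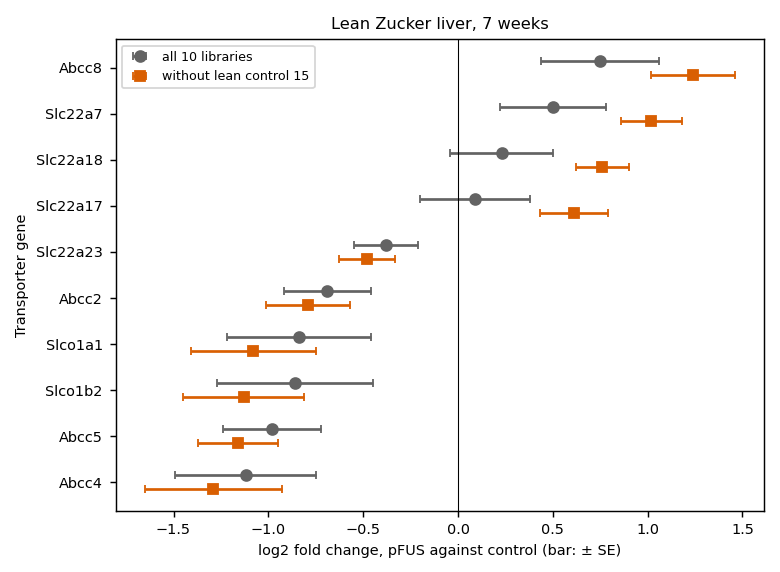
Log2 fold change of pFUS against control in 7-week lean Zucker liver (x axis; bars, ± SE) for 10 transporter genes (y axis), with all 10 libraries (circles) and without lean control 15 (squares). Abcc5 is at -1.16 without that library, and for Slc22a17 the value with all libraries is 0.09.

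Lean intestine (5 controls, 3 pFUS) had 0 of 22 called by edgeR (3 at an unadjusted p under 0.05, 0 by DESeq2) at 0.0068% of all genes, and lean brain 0 of 27 (3 and 0) at 0%. The difference of the pFUS effect between obese and lean rats was called for 0 of 26 members in liver (5 at an unadjusted p under 0.05, 0 by DESeq2; 0.405% of all genes), 0 of 22 in intestine (3 and 0; 0.0068%) and 0 of 27 in brain (5 and 0; 0%). Without lean control 15 the liver gave 9, at 21.1% of all genes: Abcc4, Abcc5, Abcc9, Slc22a23, Slco1a1 and Slco1a2 higher in the obese effect and Abcc8, Slc22a18 and Slc22a7 lower.

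After 3 days in obese ZDF liver, x1 treatment had 1 of 26 members called, against 1.33% of all genes (0.711% higher, 0.622% lower). Abcc2 was at 488, 550, 483 and 582 CPM in controls and 675, 908, 613 and 731 with x1, without overlap (0.49 ± 0.12, edgeR adjusted p = 0.0398). The call was lost in 6 of the 8 fits that left out 1 library (adjusted p up to 0.141) and in the fit of these 2 groups alone (0.152). With x10, which shares those controls, Abcc2 was at 812, 728, 608 and 629 CPM (0.36 ± 0.12, edgeR adjusted p = 0.137), also above all controls. There 0 of 26 were called (6 at an unadjusted p under 0.05, 1 by DESeq2: Abcc8), at 2.08% of all genes. Abcc8 was at 4.28, 7.60, 8.60 and 9.06 CPM in the controls and 2.19, 4.56, 4.57 and 3.74 with x10 (-1.01 ± 0.32, edgeR adjusted p = 0.116), overlapping at 1 control. In the 4-week livers, which have no matched controls, Abcc8 was at 3.23 to 4.21 CPM in AM & PM x10, 5.04 to 12.1 in AM & PM x1 and 5.14 to 9.50 in AM only x10.

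In DIO-stz liver pFUS had 1 of 26 members called (1.15% of all genes), Slc22a5, which fell. It was at 107 and 127 CPM in control females 3 and 4, 46.1 and 83.2 in control males 5 and 6, 17.0, 20.3, 19.4 and 20.6 in pFUS males 7 to 10 and 28.7 in pFUS female 11 (-1.69 ± 0.21 with sex in the model, edgeR adjusted p = 0.00331). All pFUS livers were below all controls. Among males alone the difference was -1.67 with an edgeR adjusted p of 0.1, from 2 controls and 4 pFUS livers. Abcc8 was at 2.41, 1.91, 2.27 and 1.54 CPM in controls 3 to 6 and 12.0, 7.19, 6.84, 6.60 and 3.72 in pFUS livers 7 to 11 (1.76 ± 0.37, edgeR adjusted p = 0.0501), without overlap. It passed without pFUS liver 7 (1.52 ± 0.25, edgeR adjusted p = 0.0196). Of 22 listed drug enzymes 5 were lower with pFUS, among them Cyp3a9 (-3.04) and Cyp2e1 (-1.71).

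DIO-stz kidney had 0 of 33 called by edgeR (10 at an unadjusted p under 0.05; 4 by DESeq2: Slc22a2, Slc22a13, Slc22a22 and Slco1a1), at 0.159% of all genes. Without control male 6 edgeR called 3 (Abcc1, Slc22a2, Slc47a1) among 379 genes, and without control female 4 it called Slco1a1 among 131. With no library left out 23 genes were called. Slco1a1 in males was at 14.2 and 12.8 CPM in controls and 190, 119, 52.5 and 166 with pFUS (2.96 ± 0.58, edgeR adjusted p = 0.0861). Every treated male kidney was above both untreated ones. The S3 marker sums of these libraries were 551.3 and 398.7 CPM in controls 5 and 6 and 2958, 1631, 734.1 and 1609 in pFUS 7 to 10, and their part was not tested. Library-total scaling moved the median of all genes by 0.27, called Slco1a1, and raised the share of called genes that were higher with pFUS from 60.9% to 88.2%. Intestine (0 of 21) and brain (0 of 27) had no call by edgeR, 0 at an unadjusted p under 0.05 and 0 by DESeq2, with 0% of all genes.

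Sex gave the largest contrasts among the DIO-stz rats. Kidney had 6 of 33 members called between 3 females and 6 males with treatment in the model, 3 higher and 3 lower in females, against 1.15% of all genes (0.635% higher, 0.518% lower). DESeq2 called 7, adding Slc22a2. The median log2 fold change of the members was -0.06 and that of all genes -0.01.

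The prostaglandin carrier Slc22a22 had no count in the 3 female kidneys and was at 31.3, 20.7, 135, 92.8, 54.2 and 102 CPM in males 5 to 10 (edgeR adjusted p = 0.000418). The male mean of 72.57 CPM was at least 320-fold above a floor of 3 counts per female library. Slco1a1, a carrier of steroid sulfates, likewise had no count in females and 14.2, 12.8, 190, 119, 52.5 and 166 CPM in males, at least 407-fold lower (edgeR adjusted p = 0.000884). Abcc8 was at 0.355, 0.412 and 0.378 CPM in females and 3.79, 6.54, 4.03, 3.29, 2.17 and 2.91 in males (-3.61 ± 0.39, edgeR adjusted p = 0.00101). No female reached the male range for these 3. The pair without female counts have promoters that hold AGAACA, as do those of Slco1a6 and Slc22a23, which were not called between the sexes with all 9 libraries.

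Slc22a7 was higher in females, at 139, 92.7 and 383 CPM against 12.7, 23.5, 13.0, 8.30, 4.18 and 11.7 in males (3.98 ± 0.53, edgeR adjusted p = 0.0065). Slc22a13 was at 41.6, 34.2 and 200 in females and 1.44, 0.674, 17.1, 5.49, 0.746 and 9.68 in males (4.79 ± 0.65, edgeR adjusted p = 0.00657). Abcc3 was at 16.8, 19.0 and 25.5 CPM in females and 7.63 to 13.6 in males (0.93 ± 0.18, edgeR adjusted p = 0.0428). The groups did not overlap for any of the 3, and pFUS female 11 was the highest for each. That library stood apart from its group, with a proximal tubule marker sum of 21960 CPM against 4190 to 12610 in the other DIO-stz kidneys. It was also the only female among the 5 pFUS kidneys, so its distance from the group and sex cannot be told apart, and leaving it out leaves females among controls only. Without it none of the 3 was called (Slc22a7 2.53, edgeR adjusted p = 0.105; Slc22a13 5.01, 0.151; Abcc3 0.79 ± 0.24, 0.447), while Slc22a22, Slco1a1 and Abcc8 were, with Slc22a2 lower (-2.08, 0.0446). Without control male 6, 14 members were called, but so were 3858 of all genes, against 167 with all 9 libraries.

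The 2 DIO Diet Resistant females, treated and in no comparison, had kidney levels of 0.261 and 0.0747 CPM for Slc22a22, 0 and 0.149 for Slco1a1, 0.0653 and 0.149 for Abcc8, 146 and 139 for Slc22a7 and 139 and 135 for Slc22a13. All of these lie outside the DIO-stz male ranges. The organic anion carriers Slc22a6 and Slc22a8 were not called between the sexes in kidney with all 9 libraries. Slc22a8 was called without control male 6, in the fit that called 3858 genes.

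**Figure D5:**
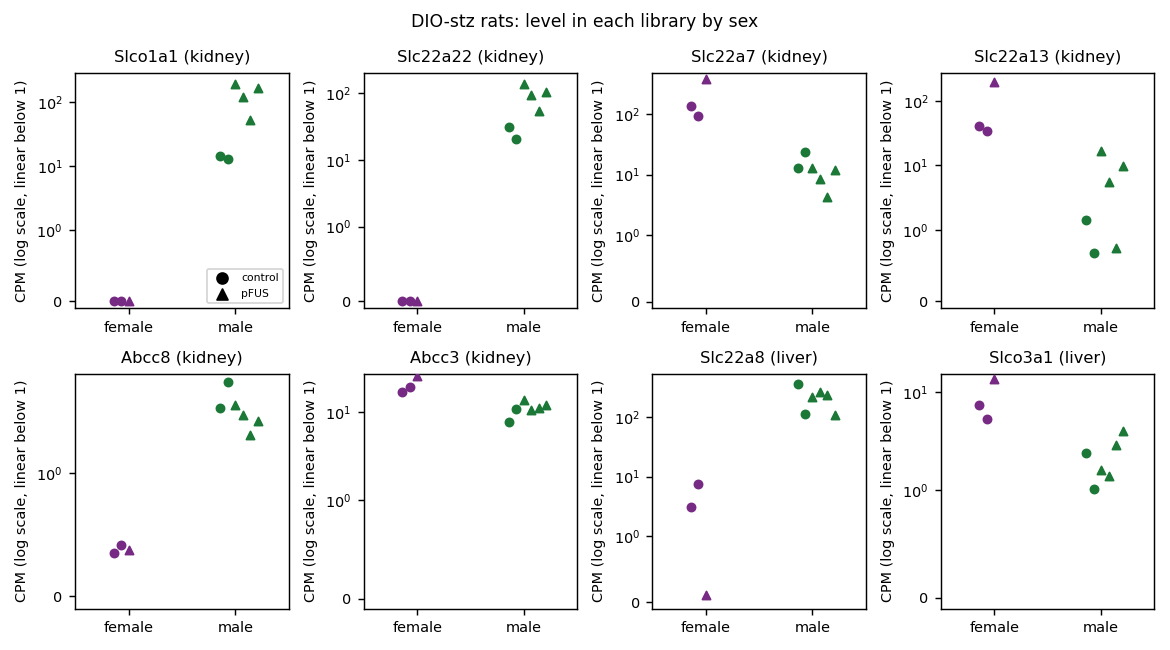
Level in CPM (y axis, log scale, linear below 1) of 6 transporter genes in kidney and 2 in liver in each DIO-stz library, by sex (x axis; 3 females, 6 males) and treatment (circles, control; triangles, pFUS). Slco1a1 and Slc22a22 are at 0 in all 3 female kidneys.

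Female liver had 2 of 26 members called (1 higher, 1 lower; 4.22% of all genes, 2.53% higher and 1.69% lower), and DESeq2 called 5. Slc22a8 was at 3.05, 7.39 and 0.105 CPM in females and 359, 113, 221, 266, 239 and 109 in males (-6.67 ± 0.99, edgeR adjusted p = 0.0027), and at 1.16 and 0.190 in the 2 Diet Resistant females. Every female liver was far below every male one. In kidney the same gene was at 1284 to 2225 CPM in females and 410 to 1893 in males. Slco3a1, a prostaglandin and thyroxine carrier, was at 7.49, 5.31 and 13.7 CPM in females and 2.38, 1.03, 1.58, 1.38, 2.89 and 4.00 in males (2.15 ± 0.35, edgeR adjusted p = 0.00453). Its call was lost without pFUS female 11 (1.67, edgeR adjusted p = 0.25). Without pFUS male 7, whose liver stood apart, Abcc2 was also called (0.68 ± 0.14, edgeR adjusted p = 0.0217).

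Listed drug enzymes differed in the same livers, 2 of 22 higher and 4 lower in females. Cyp2c11, the male form of steroid hydroxylase, was at 0.0577 to 0.572 CPM in females and 1163 to 2604 in males, and Cyp2c13 at 0.173 to 1.05 and 742 to 1693. In kidney the efflux pump Abcg2 was at 37.4 to 58.1 CPM in females and 74.4 to 160 in males. It is named alone from the list of other bile acid, drug and peptide transporters, so it does not stand for that list. Intestine (0 of 21, 2 at an unadjusted p under 0.05, 0 by DESeq2, 0.027% of all genes) and brain (0 of 27, 2 and 0, 0.0327%) had no member called by edgeR between the sexes. Of the 4 DIO-stz controls in intestine, the 2 females were the ileal libraries.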

How the data were processed

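Gene counts of 136 liver, kidney, intestine and brain libraries were used. The submitters' processing notes name STAR 2.5.3a, RSEM and the genome Rnor_6.0. No source used here states which annotation release was quantified. As deposited, the values are RSEM's expected counts for genes, whole numbers that no scaling has touched. The labels' protocols give a stranded mRNA kit for these tissues. RSEM divides ambiguous reads among similar genes, so low values of the Slco1a genes are uncertain.

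For every tissue edgeR 4.0.16 (R 4.3.3) fitted robust quasi-likelihood models after filterByExpr (minimum count 10, by group) and TMM scaling. Groups of a cohort shared a fit, and the DIO-stz models held treatment and sex. P-values were adjusted by Benjamini-Hochberg over all genes tested, at a threshold of 0.05. A standard error is the log2 fold change divided by the root of its F value, without sign. Medians and counts of members stand in for list tests. CPM uses library totals without TMM factors, and a mean of 1 CPM counted as expressed.

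Members were taken by symbol alone, but that choice and the lists were made with earlier results of these data known. The rule allowed naming every called member, up to 12 in each direction, members of the role lists at a mean of 1 CPM or more, up to 4 called genes of each other list, and marker lists as sums. Members named beyond this rule, among them Slco1a2 and Slc22a23, were chosen after their values were seen. Of 189 listed symbols 170 were found. The values of 1 member, which stays in the counts, are not reported here.

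Alternatives were DESeq2 1.42.0, RLE scaling, an unfiltered table, fits to just the 2 groups compared, males alone, a model lacking sex, a replicate block and leaving out each library. Fits without libraries that stood apart (a median correlation with the group lower by more than 0.03, or Fabp6 above 1000 CPM) and scaling by library totals were chosen after seeing the data. The scripts were tested on simulated data. No 2 libraries of a group were identical: over 237 pairs, chi-square divided by its degrees of freedom was 8.75 or more. Motifs were searched as exact letters on both strands. Bounds from counts cover counting error only. Python 3.11.15, numpy 2.4.6, pandas 2.3.3, matplotlib 3.10.9 and data.table (version 1.17.8) were used.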

Additional observations from a re-analysis of the deposited data

Results flagged for a closer look

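Called genes were checked for a library far from the others of its group, in 23 sets of 1 gene in 1 group, and chance flags about 1 in 20 such sets. The 3 sets with such a library all lie in the lean control livers and all point to library 15, so they come from 1 group and 1 library and are not separate events. Its Abcc8 level was 7.053 CPM against 2.58 to 3.81 in lean controls 11 to 14. Its Slc22a8 level was 385.5 CPM against 235 to 278. Its Slco5a1 level was 0.7272 CPM against 1.34 to 1.51.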

How the results depend on the processing

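Counts of transporters called moved under several settings. DESeq2 called 5 for female against male liver, 2 for obese against lean brain, 1 for 3-day x10, 4 for pFUS in DIO-stz kidney, 3 in DIO-stz liver, 3 in lean liver and 1 in obese intestine. With only the 2 groups compared, obese against lean liver gave 2, 3-day x1 gave 0 and pFUS in obese intestine 1. Library-size scaling gave 1 for pFUS in DIO-stz kidney, 1 in lean liver and 4 in obese intestine, and Slc22a18 of kidney against liver turned to 0.04. Without libraries that stood apart, obese against lean brain gave 2, pFUS in DIO-stz liver 2, lean liver 11, obese intestine 1 and the difference of effects in liver 9. For pFUS in DIO-stz liver, RLE factors gave 2, no filter 2, male libraries only 0 and no sex term 2, and no filter gave 4 for female against male liver. Leaving out 1 library gave 4 to 14 for female against male kidney (14 without DIO-stz control 6), 1 to 3 for liver, 5 to 7 for obese against lean liver, 0 to 2 for brain, 0 to 1 for intestine, 0 to 1 for 3-day x1, 0 to 3 for pFUS in DIO-stz kidney, 1 to 2 in DIO-stz liver, 0 to 11 in lean liver, 0 to 1 in lean intestine and 0 to 9 for the difference of effects in liver. Over all genes the same refits called 46 to 3858 for female against male kidney and 0 to 379 for pFUS in DIO-stz kidney. They called 0 to 4921 for pFUS in lean liver and 32 to 2684 for the difference of effects in liver. The cause was not tested.

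With the replicate number as a block, kidney against liver kept 29 calls, all 29 of them the same genes. Deviations of same-numbered kidney and liver libraries correlated at 0.0765, 0.282, 0.0521, 0.175 and 0.00259 over 10833 genes, and 2 of 5 libraries correlated best with their own number, so the numbers were not taken as pairs.

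Over all genes DESeq2 moved 21 of 23 counts by more than 1.5 times outside the kidney and liver comparison. With pFUS the calls went from 49 to 1033 in lean liver, 50 to 135 in obese liver, 14 to 97 in obese kidney, 9 to 562 in obese intestine, 1 to 19 in lean intestine, 23 to 450 in DIO-stz kidney and 148 to 379 in DIO-stz liver, and after 3 days from 165 to 321 (x1) and 258 to 400 (x10). They went from 50 to 103 in obese against lean brain, 2 to 147 in intestine, 543 to 825 in female against male liver, 167 to 448 in kidney and 51 to 325 for the difference of effects in liver. Fits of only the 2 groups gave 1070 in place of 1798 for obese against lean liver and 0 in place of 49 for lean liver with pFUS. Males alone gave 6 in place of 148 for DIO-stz liver. Depth limits members under 1 CPM, such as Slco5a1.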

Other observations

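Some transporters were highest outside the 4 tissues above. In obese ZDF controls Abcc9 was at 73.4 to 347.7 CPM in adipose tissue, mean 211.1, against a mean of 28.7 in intestine. Slco5a1 was at 2.43 to 12.1 CPM in muscle, mean 6.95, against a mean of 0.593 in liver. Slco3a1 was at 56.1 to 70.8 CPM in muscle, mean 65.0, against 40.7 in brain. Abcc1 (MRP1), a glutathione conjugate exporter, had a mean of 57.3 CPM in adipose tissue and 43.8 in brain. Slco2b1 had a mean of 106.4 CPM in adipose tissue, below its mean of 198.4 in liver. Adipose libraries were made with a total RNA kit, per the labels, so levels set across these tissues also differ by kit.

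In the intestine, levels of 3 members went with the ileal libraries of the DIO-stz rats. Slco2b1 was at 175.3, 190.3 and 210.0 CPM in libraries 3, 4 and 9 against 64.9 to 94.3 in the others. Abcc3 was at 88.6, 120.9 and 115.5 CPM against 13.7 to 52.3, and Abcc2 at 31.4, 42.7 and 20.9 against 80.5 to 320.2. The libraries were chosen by Fabp6, not by these genes, and the ileal sets include both control females.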
